A study of Caenorhabditis elegans with 6 samples.

Results

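The let-7 family of Caenorhabditis elegans was described in small RNA libraries of isolated adult gonads. Its 7 members were taken by name from the 253 microRNA (miRNA) genes of the count tables, where they are listed as cel-let-7, cel-mir-48, cel-mir-84, cel-mir-241, cel-mir-793, cel-mir-794 and cel-mir-795. The choice was by family name, with earlier results of these data known. Of the 7 members, 6 had reads and passed the filter on low counts, and mir-84 was listed at 0 in every library. Gonads came from wild-type N2 animals, the standard laboratory strain, with 3 libraries from hermaphrodites and 3 from males and no other treatment or allele. In adults the hermaphrodite gonad produces oocytes, having switched from sperm, while that of the male produces sperm throughout. The study set out to list gonad miRNAs and to find those enriched in males. The labels name the cell type as germline and the tissue as gonads, and a gonad also holds somatic sheath, duct and tip cells.

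MicroRNAs are short RNAs that guide Argonaute proteins to messenger RNAs, mostly through the bases near their 5′ end that are called the seed. The let-7 family shares such a seed region and is known in this species for the heterochronic pathway, which sets the order of larval cell fates in the skin. There let-7 represses lin-41 at the larva-to-adult transition, while mir-48, mir-84 and mir-241 act together at an earlier larval step on hbl-1. LIN-28, an RNA-binding protein, holds back let-7 maturation in early larvae. The roles of mir-793, mir-794 and mir-795 are less well known. The family is studied mainly in somatic tissue.

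The libraries differed in depth in the same direction as sex, with 2268159 to 2621478 miRNA counts in hermaphrodites and 245399 to 597166 in males, so the effects of depth and sex cannot be told apart. Male replicate 3 was the shallowest library and had a different miRNA profile from the other male libraries, and members' fold changes and the ratios described are given with and without it. The oocyte and embryo miRNAs mir-35 to mir-42, the marker list for female germ cells, summed to between 202473 and 343568 scaled CPM in hermaphrodite libraries and between 390 and 449 in male libraries. CPM express each count relative to the total of its library, brought to a common total, and scaled CPM use instead the library size adjusted with TMM, a trimmed-mean scaling that allows for differences in composition. In tissue samples of this kind, fewer cells of a type and less RNA per cell cannot be told apart.

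The members lie at 5 places in the genome. In the WBcel235 annotation let-7, mir-84 and mir-793 are separate genes on the X chromosome. On chromosome V, mir-48 and mir-241 are each other's nearest miRNA gene and lie on the same strand. On chromosome I, mir-795 and mir-794 are likewise nearest neighbours on one strand. The annotated let-7 gene overlaps an exon of C05G5.7 on the same strand, and the other members overlap no protein-coding gene.

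The most abundant member in all 6 libraries was mir-48, one of the early larval regulators. It stood at 20945, 31211 and 20445 scaled CPM in hermaphrodite replicates 1 to 3 and at 36357, 33026 and 55233 scaled CPM in male replicates 1 to 3. The 3 male libraries lay above the 3 hermaphrodite libraries, the lowest male value by a narrow margin, and male replicate 3 was the highest. By count it ranked 12 to 13 among all miRNAs in hermaphrodite libraries and 6 to 8 in male libraries. The fitted log2 fold change, male over hermaphrodite, was 0.78 (SE 0.36, 95% interval 0.08 to 1.48), and edgeR's quasi-likelihood test gave an adjusted p of 0.0518 (Benjamini-Hochberg, over 124 miRNAs). The difference did not pass the threshold of 0.05. Without male replicate 3 the estimate was 0.23, and with each of the other libraries left out in turn it ran from 0.43 to 0.79. Each refit with a library left out computed the filter and the scaling anew. Such changes, here and for the other members, may therefore include a shift of all miRNAs. In the authors' normalized values the sexes overlapped, at 26274 ± 4121 (SD, n = 3) in hermaphrodites and 36399 ± 13810 (SD, n = 3) in males.

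The founding member, let-7, was second in all libraries. Its levels were 12022, 18728 and 11803 scaled CPM in the hermaphrodite libraries and 20926, 14658 and 11047 scaled CPM in the male libraries. The sexes overlapped throughout, and the lowest of the 6 values was male replicate 3, the library in which mir-48 was highest. Its rank by count was 16 to 17 in hermaphrodite and 10 to 12 in male libraries. The log2 fold change was 0.13 (SE 0.37, 95% interval -0.60 to 0.86), and the adjusted p from the same edgeR test was 0.828. The estimate was 0.028 without male replicate 3 and between -0.24 and -0.13 with any 1 of the other 5 libraries left out, so its direction is not settled.

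The neighbour of mir-48 on chromosome V, mir-241, was present at much lower counts. Its levels were 593, 712 and 416 scaled CPM in hermaphrodite libraries and 876, 806 and 1012 scaled CPM in male libraries. As with mir-48, every male library was above every hermaphrodite library. The log2 fold change was 0.65 (SE 0.41, 95% interval -0.16 to 1.45), with an adjusted p of 0.172 in the edgeR test. The estimate was lower with any 1 library left out, whichever it was. It was 0.19 without hermaphrodite replicate 3, 0.27 without male replicate 3 and 0.31 without hermaphrodite replicate 2. The highest of these values was 0.59, without male replicate 1. In the authors' normalized values the sexes overlapped for mir-241 too, at 619 ± 82.4 (SD, n = 3) and 779 ± 157 (SD, n = 3).

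The third early larval regulator, mir-84, was counted at 0 in all 6 libraries. A count of 0 allows a share of up to 0.000114% of miRNA counts in hermaphrodite replicate 1, the deepest library, and up to 0.00122% in male replicate 3, the shallowest. These limits cover counting error only. Of the 58 miRNA entries numbered up to mir-90, 6 had 3 counts or fewer in every library, and the other 5 were mir-46, mir-55b, mir-62, mir-80 and mir-86. These 5 were picked after their values were seen. How reads that match more than 1 family member were assigned is not given in the sources used here, so the split among members of similar sequence is uncertain. For the same reason the count of 0 does not show that mir-84 was absent.

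Among the later-numbered members, mir-793 on the X chromosome was measured at 445, 473 and 360.2 scaled CPM in hermaphrodites. In males it was at 502, 425 and 123 scaled CPM, the last from male replicate 3 and based on 37 reads. The first pair of male libraries lay within or just above the hermaphrodite range, and male replicate 3 lay far below it. The log2 fold change was -0.27 (SE 0.41, 95% interval -1.09 to 0.54), with an adjusted p of 0.617 in the edgeR test. It was -0.19 without male replicate 3 and between -0.82 and -0.47 with any 1 of the other 5 libraries left out. RLE (relative log expression) scaling gave -0.63, TMM computed without the mir-35 family -0.80, and the authors' normalized values -0.86 with either pseudocount. In the authors' normalized values all male libraries lay below all hermaphrodite libraries, at 292 ± 152 (SD, n = 3) against 465 ± 6.66 (SD, n = 3).

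The least abundant member with reads was mir-794, at 75.8, 78.5 and 64.2 scaled CPM in hermaphrodite libraries. Male libraries held 85.7, 108 and 36.6 scaled CPM, the last resting on 11 reads. Here too male replicate 3 was the lowest of the 6 values and male replicates 1 and 2 were the highest. The log2 fold change was 0.10 (SE 0.55, 95% interval -0.97 to 1.18), with an adjusted p of 0.87 in the edgeR test. It was again 0.10 without male replicate 3, and between -0.56 and -0.10 with any 1 of the other 5 libraries left out.

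Its neighbour on chromosome I, mir-795, did not show that low value. It was at 384, 414 and 261 scaled CPM in hermaphrodites and at 357, 497 and 699 scaled CPM in males. Male replicate 3 was the highest library and male replicate 1 lay inside the hermaphrodite range. The log2 fold change was 0.55 (SE 0.41, 95% interval -0.26 to 1.36), with an adjusted p of 0.257 in the edgeR test. It was 0.01 without male replicate 3, 0.09 without hermaphrodite replicate 3 and 0.16 without hermaphrodite replicate 2. It was 0.40 without male replicate 2, 0.41 without hermaphrodite replicate 1 and 0.68 without male replicate 1.

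**Figure D1:**
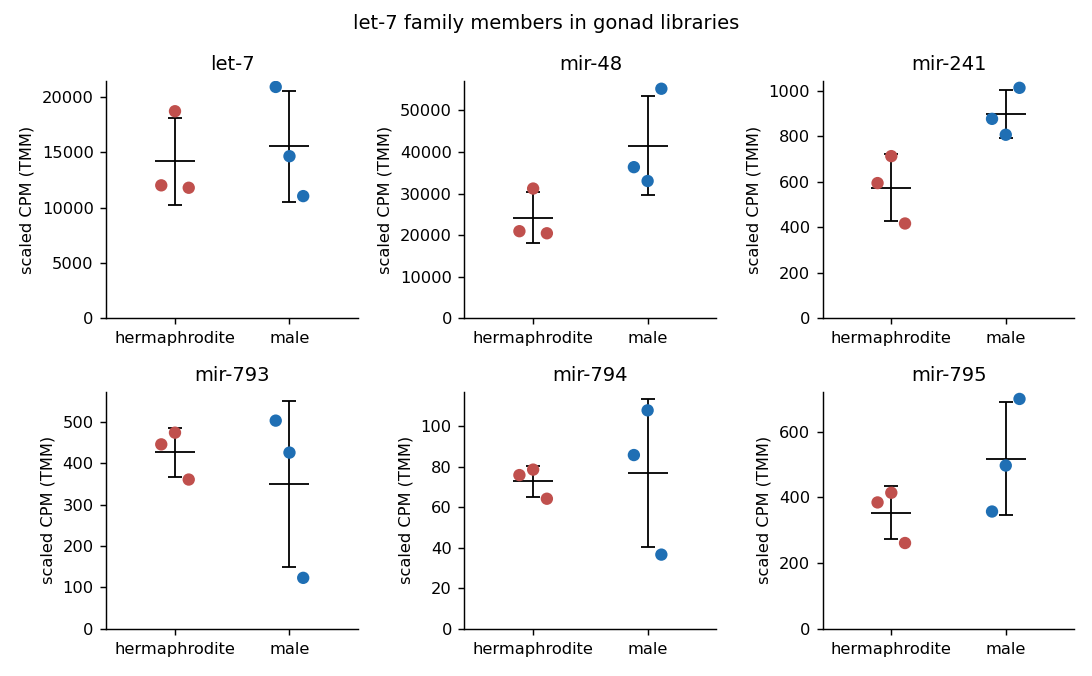
Scaled CPM of the 6 members with reads, on linear axes from 0, in 3 hermaphrodite (red) and 3 male (blue) libraries, ordered left to right as replicates 1 to 3; bars are the mean and SD. The sexes separate for mir-48 and mir-241, and male replicate 3 is the highest library for mir-48, mir-241 and mir-795 and the lowest for let-7, mir-793 and mir-794.

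None of the 6 tested members was called at an adjusted p under 0.05, in a comparison where 55.6% of the 124 tested miRNAs were called. The calls over all tested miRNAs were 30.6% higher in male and 25% lower in male gonads. One member, mir-48, had an unadjusted p under 0.05, against 76 of the 124. The members' log2 fold changes ran from -0.27 to 0.78 with a median of 0.34, beside a median of 0.15 and a range of -9.55 to 11.02 over all tested miRNAs. Ranked from the most male-enriched of the 124, the members took places 49 to 80. The intervals given above still allow changes of more than 2-fold for mir-48, mir-241, mir-795, mir-794 and mir-793 in at least 1 direction, so similar levels in both sexes are not shown. In scaled CPM, 2 of the 6 members lay higher in every male library than in any hermaphrodite library. Over all tested miRNAs 67.7% had no overlap between the sexes, and 38.7% had every male library above.

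The scaling between libraries moved all members together. Over the 5 scalings tried, the median log2 fold change of the 124 tested miRNAs went from -0.35 with TMM computed without the mir-35 family to 1.18 with plain library totals, and the members moved with it. Library totals gave 4 calls as higher in male gonads, for let-7, mir-48, mir-241 and mir-795, where 55.6% of all tested miRNAs were called in that direction. Upper-quartile scaling gave 2, mir-48 and mir-241, where the share over all was 40.3%. With no filter on low counts mir-48 alone was called, with an adjusted p of 0.0077 in the edgeR test, where 24.9% of 181 miRNAs were called higher in male. Over 18 alternatives its adjusted p ranged from 0.00014 to 0.334. The fitted direction of let-7 and of mir-794 was reversed by RLE scaling, to -0.20 and -0.24, and that of mir-793 by library totals, to 0.80. These reversals come with the shift of all miRNAs. Relative to the median of all tested miRNAs under TMM, the log2 fold change was higher by 0.63 for mir-48, 0.50 for mir-241 and 0.40 for mir-795, differed by -0.02 for let-7 and -0.04 for mir-794, and differed by -0.42 for mir-793. Since a scaling moves members and median nearly alike, these offsets are 1 measurement and not 5.

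**Figure D2:**
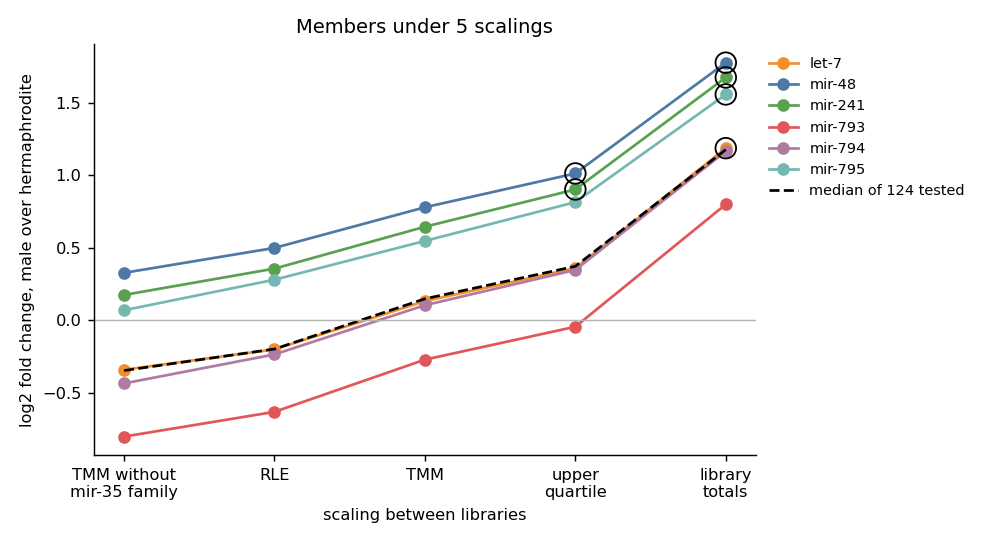
Log2 fold change (male over hermaphrodite) of each member with reads under 5 scalings between libraries, with the median of all 124 tested miRNAs as a dashed line; black circles mark an adjusted p under 0.05. The members and the median, which runs from -0.35 to 1.18, shift nearly in parallel, so that the sign and the number of calls change with the scaling.

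Summed over its members, the family took a larger part of the miRNA counts in male gonads. Its share was 2.43%, 2.89% and 2.98% of all miRNA counts in hermaphrodite replicates 1 to 3 and 8.43%, 8.04% and 8.34% in male replicates 1 to 3. The 3 male shares lay close to each other and well above the hermaphrodite shares. The means were 2.77% ± 0.296 (SD, n = 3) and 8.27% ± 0.206 (SD, n = 3), a ratio of 2.99. In log2 this ratio was 1.58, beside a median fitted log2 fold change of 1.18 over the 124 tested miRNAs with library totals. Much of the rise in share was therefore common to the typical tested miRNA. For single libraries the widest 95% Wilson interval was that of male replicate 3, from 8.23% to 8.45%. By unscaled CPM, 4 of the 6 members with reads were higher in every male library, while 53.2% of all tested miRNAs were.

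A share depends on what else fills the library. With the mir-35 family, which is abundant only in the hermaphrodite libraries, removed from the totals, the mean shares were 3.39% and 8.28%, a ratio of 2.44. In scaled CPM the summed family stood at 34466, 51616 and 33349 in hermaphrodite and 59103, 49519 and 68151 in male libraries. On this scale male replicate 2 fell below hermaphrodite replicate 2 and the ratio of means was 1.48. In the authors' normalized values the sum was 43194 ± 6923 (SD, n = 3) in hermaphrodites and 51108 ± 11650 (SD, n = 3) in males, a ratio of 1.18 with overlapping sexes. The direction of the means was thus the same on the 4 scales, and the separation of the sexes held only for the shares. In the authors' normalized values, male replicates 1 and 2 were at 44836 and 43937, inside the hermaphrodite range. Their mean was 44387, and male replicate 3 was at 64550, so the difference there came mostly from male replicate 3.

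Composition is free of the scaling, since members are compared within a library. Together, let-7 and mir-48 made up 95.7% to 97.3% of family counts in the 6 libraries. Read counts of different miRNAs also carry differences in ligation and amplification, so these are shares of reads and not of molecules. Of the family counts, mir-48 took 60.8%, 60.5% and 61.3% in hermaphrodite libraries and 61.5%, 66.7% and 81.0% in male libraries. The hermaphrodite libraries were nearly alike, male replicate 1 was just above them and male replicate 3 was far above. For let-7 the percentages were 34.9%, 36.3% and 35.4% in hermaphrodites and 35.4%, 29.6% and 16.2% in males, with male replicate 1 inside the hermaphrodite range. The mean share of mir-48 within the family was 8.90 percentage points higher in males, and 3.26 points higher without male replicate 3.

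The minor members each took under 2% of family counts. For mir-241 the mean was 1.45% ± 0.245 (SD, n = 3) in hermaphrodites and 1.53% ± 0.0832 (SD, n = 3) in males, with overlapping libraries. For mir-795 it was 0.900% ± 0.187 (SD, n = 3) and 0.877% ± 0.237 (SD, n = 3), again overlapping. The share of mir-793 was lower in every male library, at 0.850%, 0.859% and 0.181% against 1.29%, 0.917% and 1.08% in hermaphrodites. The share of mir-794 was between 0.152% and 0.220% in hermaphrodites and at 0.145%, 0.218% and 0.0537% in males.

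**Figure D3:**
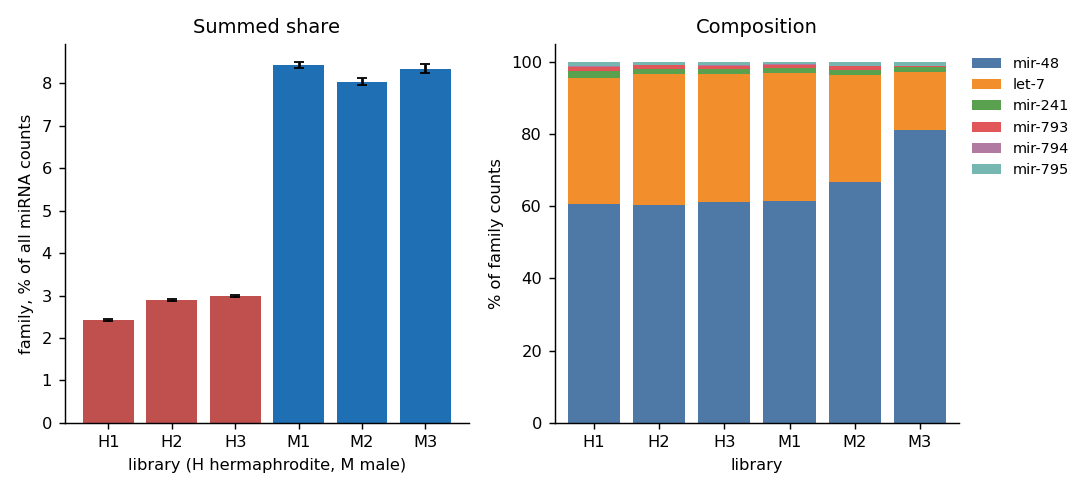
Left, family counts as a percentage of all miRNA counts in each library, with 95% Wilson intervals for counting error; right, the split of the family counts among the 6 members with reads. The summed share is between 8.04% and 8.43% in the male libraries (M1 to M3) and between 2.43% and 2.98% in the hermaphrodite libraries (H1 to H3), while mir-48 takes 81.0% of the family in M3 and 60.5% to 66.7% elsewhere.

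For each pair of the 6 members the ratio of counts was taken within each library, which gave 15 pairs. In 13 pairs the sexes overlapped, and the exact two-sided permutation p, which cannot go below 0.1 with 3 libraries against 3, was 0.1 for the other 2. After Benjamini-Hochberg adjustment over the 15 pairs the lowest p was 0.5. The pairs without overlap were mir-48 to mir-793 and mir-241 to mir-793.

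Relative to mir-793, mir-48 had 47.1, 65.9 and 56.8 times the counts in hermaphrodite libraries and 72.4, 77.7 and 448 times in male libraries. All male ratios were above all hermaphrodite ratios, the first pair of male libraries by little. The mean log2 ratio was higher in males by 1.28, with a pooled SD of 1.07, and by 0.42 without male replicate 3. The ratio of mir-241 to mir-793 was 1.33, 1.50 and 1.15 in hermaphrodites and 1.74, 1.89 and 8.22 in males, a mean log2 difference of 1.18 that became 0.46 without male replicate 3.

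The ratio of let-7 to mir-48 was 0.574, 0.600 and 0.577 in hermaphrodite replicates and 0.576, 0.444 and 0.200 in male replicates. Male replicate 1 lay inside the hermaphrodite range, male replicate 2 was lower and male replicate 3 lower still. The log2 difference of means, male minus hermaphrodite, was -0.65 with a pooled SD of 0.56 (exact two-sided permutation p = 0.2), and -0.21 without male replicate 3.

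The ratio of the neighbouring genes on chromosome V overlapped between the sexes. Counts of mir-48 were 35.3, 43.8 and 49.1 times those of mir-241 in hermaphrodite libraries and 41.5, 41.0 and 54.6 times in male libraries. The log2 difference was 0.10 with a pooled SD of 0.24 (exact two-sided permutation p = 0.7), and -0.04 without male replicate 3. The neighbours on chromosome I departed from a common ratio in male replicate 3. The ratio of mir-794 to mir-795 was 0.197, 0.190 and 0.246 in hermaphrodites, 0.240 and 0.217 in male replicates 1 and 2, and 0.0524 in male replicate 3 (exact two-sided permutation p = 0.8 over the sexes). The log2 difference of means, male minus hermaphrodite, was -0.58 with male replicate 3 and 0.12 without it.

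**Figure D4:**
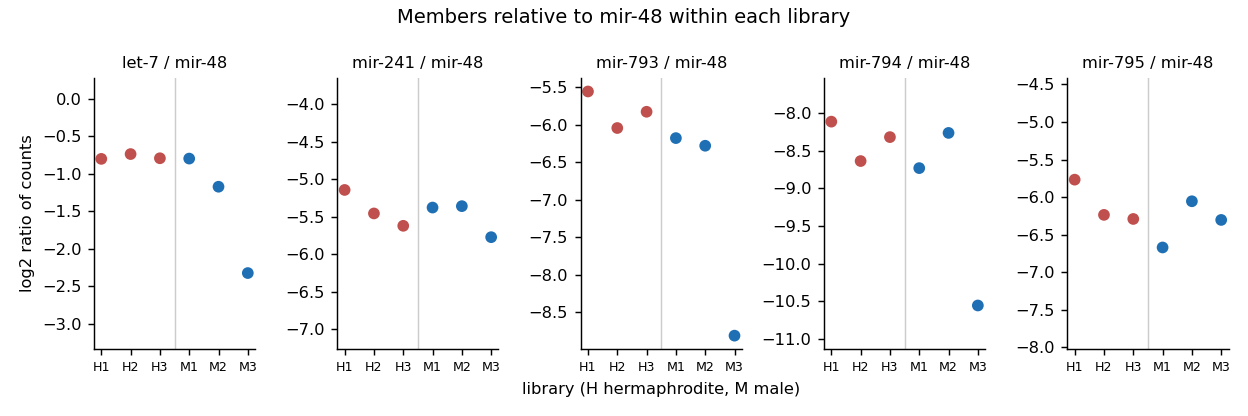
Log2 ratio of the counts of 5 members to those of mir-48 in each library (H1 to H3 hermaphrodite in red, M1 to M3 male in blue); the vertical axes differ in position and span the same number of log2 units. let-7, mir-793 and mir-794 are lowest relative to mir-48 in M3, as is mir-241 by a small margin, and mir-241 and mir-795 stay within a narrower band.

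Male replicate 3 therefore carried much of the variation within the family. In log2 scaled CPM it differed from the mean of male replicates 1 and 2 by 0.67 for mir-48, 0.73 for mir-795 and 0.27 for mir-241. The same differences were -0.66 for let-7, -1.35 for mir-794 and -1.89 for mir-793. Over the 124 tested miRNAs the median of this difference was -0.06, with 10th and 90th percentiles of -1.95 and 1.27, so all 6 members lay between these percentiles and the library differed from the others across the profile.

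Markers of somatic cells did not move together in male replicate 3. Its log2 difference from the mean of male replicates 1 and 2 was -1.71 for mir-1, -2.40 for mir-60, -1.12 for lsy-6 and 0.92 for mir-228. Of these, mir-60 alone lay outside the 10th and 90th percentiles of all tested miRNAs, -1.95 and 1.27. The muscle miRNA mir-1 was at 1242 and 965 scaled CPM in male replicates 1 and 2 and at 333 in male replicate 3. For the intestinal mir-60 these values were 1452, 943 and 219.7 scaled CPM. The glial and hypodermal mir-228 went the other way, with 8245 and 8674 scaled CPM in male replicates 1 and 2 and 16047 in male replicate 3. Of the 6 somatic markers listed, 4 were tested, of which 2 (mir-228 and the neuronal lsy-6) were higher in male gonads, 1 (mir-1) was lower and mir-60 was not called. The shares over all tested miRNAs were 30.6% higher and 25% lower. Levels of lsy-6 were low, at 4.44 to 6.50 scaled CPM in hermaphrodites and 6.66 to 28.0 in males. They rested on 12, 7 and 9 counts in hermaphrodite replicates 1 to 3 and on 8, 20 and 2 counts in male replicates 1 to 3. The summed level of the 6 markers was 6060 to 8272 scaled CPM in hermaphrodite and 10614 to 16619 scaled CPM in male libraries. Most of it was mir-228, at 3761 to 5201 scaled CPM in hermaphrodite and 8245 to 16047 in male libraries. The sum therefore mainly follows this 1 marker. The neuronal mir-124 had 0 to 6 counts and mir-791 had 1 to 11 counts per library. The part of somatic cells in the family's levels was not tested.

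**Figure D5:**
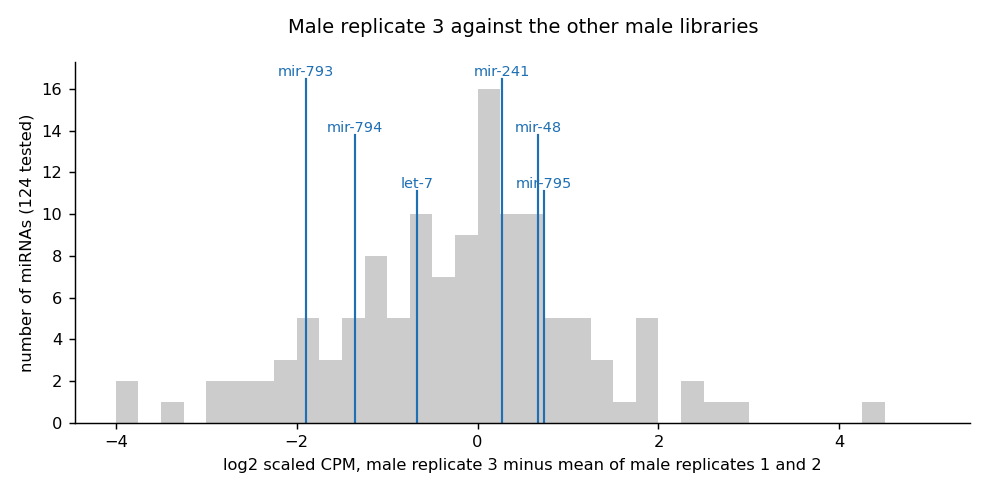
Histogram over the 124 tested miRNAs of the difference in log2 scaled CPM between male replicate 3 and the mean of male replicates 1 and 2, with the 6 tested members marked by blue lines whose heights have no meaning. The members run from -1.89 (mir-793) to 0.73 (mir-795), inside the range that holds the middle 80% of miRNAs.

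Of the other miRNAs of the heterochronic pathway, lin-4 opens it by repressing lin-14, and mir-237 is its paralog. Levels of lin-4 were 321, 387 and 302 scaled CPM in hermaphrodite libraries and 696, 652 and 1142 scaled CPM in male libraries, with no overlap. Its log2 fold change under TMM was 1.30 (SE 0.42), and it was called higher in male gonads with an adjusted p of 0.00465 in the edgeR test. Male replicate 3 was the highest library. Fits of lin-4 with other scalings or without male replicate 3 are not given here. For mir-237 the counts were 21, 15 and 36 in hermaphrodites and 14, 11 and 0 in males, and the log2 fold change was -0.16 (SE 0.60, adjusted p 0.84 in edgeR's test). The mir-51 family, mir-51 to mir-56, interacts genetically with the let-7 family in larval timing. Of its 6 members, all tested, 1 was higher in male gonads (mir-52, log2 fold change 1.23), 1 was lower (mir-54, -1.16) and 4 were not called in the edgeR test. Over all tested miRNAs, 30.6% were called higher and 25% lower in male gonads. The family's median log2 fold change was -0.19, beside 0.15 over all tested miRNAs.

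Patterns like those of the members were sought among the other tested miRNAs by Pearson correlation of log2 scaled CPM over the 6 libraries, which share their depth and scaling. The nearest to let-7 were mir-77 (r = 0.93), mir-58a (0.93) and mir-4937 (0.82). For mir-48 they were mir-354 (0.99), mir-57 (0.98) and mir-235 (0.97), and for mir-241 they were mir-87 (0.99), mir-230 (0.97) and mir-354 (0.96). Without male replicate 3 these 9 correlations lay between 0.83 and 0.99. For mir-793 the nearest were mir-5551, mir-785 and mir-250 (0.98 each), which dropped to 0.79, 0.26 and 0.67 without male replicate 3. For mir-794 they were mir-232 (0.98), mir-355 (0.93) and mir-79 (0.90), and for mir-795 mir-245 (0.96), mir-228 (0.89) and mir-52 (0.88). Without male replicate 3 those of mir-794 were 0.90, 0.68 and 0.72, and those of mir-795 were 0.96, 0.72 and 0.67, in the same order. Between members, mir-48 and mir-241 had r = 0.91 with and without male replicate 3, while let-7 and mir-48 had r = 0.13 with it and 0.89 without it.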

How the data were processed

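Per the labels' protocols, total RNA from gonads was extracted with a commercial kit and sequenced as TruSeq small RNA libraries. The authors deposited whole-number read counts per miRNA for each sample. The build (ce10) and the miRBase release (22) appear in the file names. Bowtie2, HTSeq and DESeq2 are named per the submitters' processing notes. How reads matching more than 1 miRNA were handled is not given in the sources used here. The authors also deposited a normalized table, used here as a signal, which equals the counts divided by 1 size factor per library. Members and lists were chosen with earlier results of these data known.

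Counts were analysed with edgeR 4.0.16 in R 4.3.3 (filterByExpr at its defaults, TMM, estimateDisp, glmQLFit with robust=TRUE, glmQLFTest; two-sided, Benjamini-Hochberg over all 124 tested of 253 miRNAs, threshold 0.05). Library totals were 245399 to 2621478. Standard errors are the log2 fold change over the square root of F. Nothing states that samples came from separate animals or cultures, so p-values refer to the spread between these samples only. In the edgeR fit this spread is moderated with that of the other tested miRNAs. Its p-values, standard errors and intervals therefore do not rest on the values of each miRNA alone. Shares have 95% Wilson intervals, and a count of 0 was given a limit of 3 counts. Ratios were compared by exact permutation with scipy 1.17.1. The test was checked on simulated data, with planted changes larger than those fitted for the members. That check does not show whether changes of the members' size would be found, and it does not address the choice of scaling. Alternatives were 4 other scalings, DESeq2 1.42.0, limma-voom and limma-trend (limma 3.58.1, pseudocount 1 or 0.1), robust=FALSE, 2 filters, a stricter threshold, the replicate block, other denominators and each library left out. The named miRNAs were all members, the 3 closest patterns to each, 2 pathway lists and the marker lists. WBcel235 (Ensembl release 115) gave chromosomes and neighbours only, since its build differs from ce10. Sequences were not used here.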

Additional observations from a re-analysis of the deposited data

How the results depend on the processing

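No member was called under 15 of the 18 refits, and with an adjusted p under 0.01 none was called either. Upper-quartile scaling gave 2 calls, library totals 4 and no filter 1, all higher in male gonads. The log2 fold change of let-7 was reversed with RLE scaling (-0.20), DESeq2 (-0.20), TMM without the mir-35 family (-0.34) and the authors' normalized values (-0.23 with either pseudocount), and ranged from -0.24 to 0.028 with single libraries left out. That of mir-794 was reversed with RLE (-0.24), TMM without the mir-35 family (-0.44), DESeq2 (-0.22), the replicate block (-0.020) and the authors' normalized values (-0.40 and -0.41 with pseudocounts of 1 and 0.1), and ranged from -0.56 to 0.10 with single libraries left out. For mir-793 library totals gave 0.80. The sign of mir-48, mir-241 and mir-795 did not change in the 18 refits, but their sizes did, to as low as 0.23, 0.17 and 0.0083.

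Over all miRNAs, library totals gave 69 calls higher and 20 lower in male gonads, against 38 and 31. The former was 23 to 43 with single libraries left out, at 24 without hermaphrodite replicate 2 and 23 without hermaphrodite replicate 3. The log2 ratio of the summed family, 1.58 for shares of all counts, was 1.29 without the mir-35 family in the totals, 1.35 without mir-82, 1.21 without mir-48 among the members, 0.24 in the authors' normalized values and 0.57 in scaled CPM, the last chosen after seeing the data. With single libraries left out it was 1.49 to 1.64. The number of member pairs without overlap, 2 in all, was 2 to 7 with single libraries left out (4 without hermaphrodite replicate 1, 7 without male replicate 1 and 7 without male replicate 2). Of the 15 ratios, 5 changed sign with at least 1 library left out. The cause of these changes was not tested.

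Same-numbered libraries did not deviate together (r = -0.12, -0.05 and -0.27), and the main fit did not pair them. With 3 libraries per sex, these correlations cannot show whether samples were paired. With the replicate block no member was called, and 31 miRNAs were higher and 27 lower in male gonads. At male depth, mir-794 rested on 11 to 77 reads per library, which limits its precision.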
